A study of Homo sapiens with 6 samples.

Results

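Osteopontin (SPP1), 8 other genes for secreted proteins of the extracellular matrix (SPARC, THBS1, THBS2, TNC, POSTN, TGFBI, VCAN and DCN) and the transcription factor gene RUNX2 were examined in established human ovarian adenocarcinoma cell lines that carried constructs made to suppress or to overexpress Hic-5. Their probes were taken by gene name from the array, which holds 41000 probes and 29123 named genes. All 10 genes were found, with 16 probes, and no further probe carried a RefSeq transcript of these genes under another name. THBS1 and THBS2 had 2 probes each, TNC and RUNX2 had 3 each, and the other 6 genes had 1 each. The SPP1 probe and the THBS1 probe A_23_P206212 were each printed in 10 spots on every array.

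The study compared gene expression between clones and their controls on 6 two-colour Agilent Whole Human Genome arrays, on which 1 RNA carries the dye Cy3 and the other Cy5. In SKOV3 cells, 4 arrays set the clones sh-S1 and sh-S2 against 1 control RNA (Ctrl), 2 arrays per clone with the dyes exchanged. Both clones carried a lentiviral pLKO.1-puro vector with a short hairpin RNA against Hic-5 and were selected with puromycin, and the Ctrl, labelled as mock-transfected, is described in the methods as carrying a scramble vector. In A2780s cells, 2 dye-swapped arrays set 1 clone with a pCMV6 vector for tagged Hic-5 (pCMV-Hic-5) against a clone with the empty vector (A2780s Ctrl), both selected with neomycin. Dye-swapped arrays of the same pair of RNAs were counted as 1 replicate, which left n = 2 clones in SKOV3, both against the same Ctrl RNA, and n = 1 in A2780s. For the p-values and intervals in SKOV3, limma combined the spread between these clones with a spread estimated over all probes, at 5.59 prior degrees of freedom. They leave out the spread of the Ctrl itself and, since dye-swaps were averaged first, the spread between dye orientations. No test was possible in A2780s. Each clone is 1 selected line, so the clone and its construct cannot be told apart.

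The paper reports lower Hic-5 in the clones sh-S1 and sh-S2 (the sh-labelled RNAs from here on) by PCR and Western blot. On these arrays, the 1 probe of TGFB1I1, the gene that encodes Hic-5, was not lower in them than in the Ctrl. Its log2 ratio over Ctrl was -0.16 and 0.12 on the sh-S1 arrays and -0.12 and 0.28 on the sh-S2 arrays, with the clone in Cy5 first. The mean was 0.03 ± 0.09 (SE), with limma's adjusted p = 0.855, so every direction given for these RNAs rests on their labels. In the A2780s arrays TGFB1I1 was higher in the pCMV-Hic-5 clone, with log2 ratios of 4.05 and 2.60. In SKOV3 the median Cy5 signal over background was 9.52 to 25.5 against 373 to 530 in Cy3, and 43.7 to 63.6% of the spots were well above background in Cy5 against 88.8 to 94.5% in Cy3. Ratios in SKOV3 were therefore given for both dye orientations, and the number of arrays limits their precision.

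Markers of the labelled cell type were checked on the same arrays. In the SKOV3 Ctrl, 5 of 8 epithelial markers were well above background on all 4 arrays, and EPCAM, CDH1 and CLDN4 were so on 2 of 4. Of the 5 epithelial markers tested, the keratins KRT7, KRT8, KRT18 and KRT19 fell in the sh-labelled RNAs, and so did the ovarian transcription factor genes PAX8 and SOX17 among the 4 Mullerian markers tested. The summed signal of the epithelial list, on the log2 scale, was 15.3 to 15.8 in the Ctrl and 12.7 to 13.2 in the sh-labelled RNAs. Of the 4 fibroblast markers tested, COL3A1 (log2 ratio 3.65, and 2.37 on the mean over its 3 probes) and THY1 (1.45) rose. COL1A1 (-0.14) and COL1A2 (0.16) were not called. The summed signal of the fibroblast list was 10.9 to 11.5 in the Ctrl and 13.0 to 14.1 in the clones. FAP and LUM passed the background limit on 2 of 4 arrays in the Ctrl and in the clones, and PDGFRB on 0 of 4 Ctrl arrays. The 3 leukocyte markers tested in SKOV3 (CD3E, CD14 and CD68) were not called, and no endothelial marker was bright enough to be tested there. These marker changes lie beside all the SKOV3 results below, and their part in them was not tested. In A2780s, KRT18 (0.59) was the 1 marker past the fold rule, short of it at 0.49 on the mean over its 4 probes, and CDH1 was not well above background on either array. In bulk RNA, fewer cells that express a gene and less RNA per cell cannot be told apart.

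Matricellular proteins are secreted into the matrix but act mainly as signals: they bind integrins, CD44 and growth factors and change how cells adhere and migrate. Osteopontin is a phosphoprotein of bone, plasma and many carcinomas that binds integrins and CD44 and is studied as a serum marker of ovarian cancer. Transforming growth factor beta, acting through its serine/threonine kinase receptors and the SMAD proteins, is a textbook inducer of TGFBI, POSTN, THBS1, TNC and VCAN in many cell types, and RUNX2 is the osteoblast transcription factor for which SPP1 is a classical target. Hic-5, named for its induction by hydrogen peroxide, is a LIM-domain protein of focal adhesions whose gene is itself induced by transforming growth factor beta.

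The sequences read by the probes of SPP1, POSTN and RUNX2 are shown because these genes stand for a lower level in both cell lines, a rise in SKOV3 and a disagreement between probes. Each is the 60-base probe of the array in the direction of the transcript, at the hg19 position that the array annotation gives.
SPP1 A_23_P7313, chr4:88903920-88903979, plus strand: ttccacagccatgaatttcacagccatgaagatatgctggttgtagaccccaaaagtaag
POSTN A_24_P347411, chr13:38153161-38153220, minus strand: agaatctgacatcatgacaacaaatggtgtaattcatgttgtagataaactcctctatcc
RUNX2 A_24_P69267, chr6:45514797-45514856, plus strand: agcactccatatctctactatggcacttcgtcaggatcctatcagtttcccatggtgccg
The probe RUNX2 A_32_P161762, for which another value is reported below, lies further along the same chromosome at chr6:45518216-45518275, and the array annotation gives it the same RefSeq transcript.

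Promoters are shown for the same 3 genes, since SPP1 fell in SKOV3, POSTN rose, and RUNX2, of which SPP1 is a classical target, fell with 1 of its 3 probes. RefSeq start sites on GRCh38.p14 gave 10 promoters for 9 of the genes, 2 of them for RUNX2, and none for DCN. The 250 bases before each start were searched on both strands for the core of the RUNX site (ACCACA or TGTGGT), the AP-1 site (TGANTCA), the SMAD box (CAGACA or TGTCTG) and the TATA box (TATAAA or TTTATA), and matches are in capitals.
SPP1, chr4:87975464-87975713, plus strand: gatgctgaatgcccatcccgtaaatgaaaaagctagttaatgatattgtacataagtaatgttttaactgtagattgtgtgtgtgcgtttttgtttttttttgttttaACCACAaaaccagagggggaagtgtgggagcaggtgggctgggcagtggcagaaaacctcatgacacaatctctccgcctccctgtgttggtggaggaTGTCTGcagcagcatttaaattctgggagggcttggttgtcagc
RUNX2, first of 2, chr6:45328080-45328329, plus strand: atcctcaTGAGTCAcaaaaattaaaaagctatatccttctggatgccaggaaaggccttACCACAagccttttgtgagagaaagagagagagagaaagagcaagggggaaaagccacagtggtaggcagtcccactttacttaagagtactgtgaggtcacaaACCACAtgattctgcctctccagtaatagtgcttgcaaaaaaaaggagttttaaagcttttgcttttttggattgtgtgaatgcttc
POSTN, chr13:37598769-37599018, minus strand: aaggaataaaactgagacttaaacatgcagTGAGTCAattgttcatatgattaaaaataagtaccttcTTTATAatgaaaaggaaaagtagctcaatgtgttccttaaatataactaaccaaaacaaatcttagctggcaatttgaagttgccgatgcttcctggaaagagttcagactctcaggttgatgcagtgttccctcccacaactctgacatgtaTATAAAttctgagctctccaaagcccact
The SPP1 promoter holds 1 RUNX core, from base 142 to 137 before the start, and 1 SMAD box from base 44 to 39. The RUNX2 promoter holds 2 RUNX cores, which begin 191 and 87 bases before its start, and an AP-1 site that begins at base 243, and the second RUNX2 promoter holds none of the motifs. The POSTN promoter holds an AP-1 site that begins at base 220 and a TATA box at base 29 before the start, besides a TATA match on the opposite strand at base 182. No matches of different motifs overlapped in these promoters. Among all 35116 promoters searched, 11% hold the RUNX core, 6.57% the AP-1 site, 13.6% the SMAD box and 10.7% the TATA box. The RUNX core was in 2 of the 10 promoters searched for these genes, the SMAD box in 3, and each of the other motifs in 2. A match is a run of letters and no evidence of binding.

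In SKOV3, 14 of the 16 probes, covering all 10 genes, were bright enough to be tested, that is, well above background on all 4 arrays for the Ctrl or on both arrays of a clone. A probe was called where limma's p-value, adjusted over all 24956 probes tested, was at most 0.05 and the change was at least 2-fold. TGFBI, SPP1, THBS1, VCAN and RUNX2 fell in the sh-labelled RNAs, with 6 probes (for RUNX2, 1 of the 2 tested), and SPARC and POSTN rose, with 2 probes. Over all probes tested, 4.16% were called lower and 2.98% higher. The 14 probes had a median log2 ratio of -0.20, beside 0.0017 over all probes tested, and each of the 8 called probes moved the same way on 4 of 4 arrays. Averaged over both clones, the ratio was larger in size with the clone in Cy3 than in Cy5 for all 8, so the mean of both orientations is given as the estimate. THBS2, TNC and DCN were not called.

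**Figure D1:**
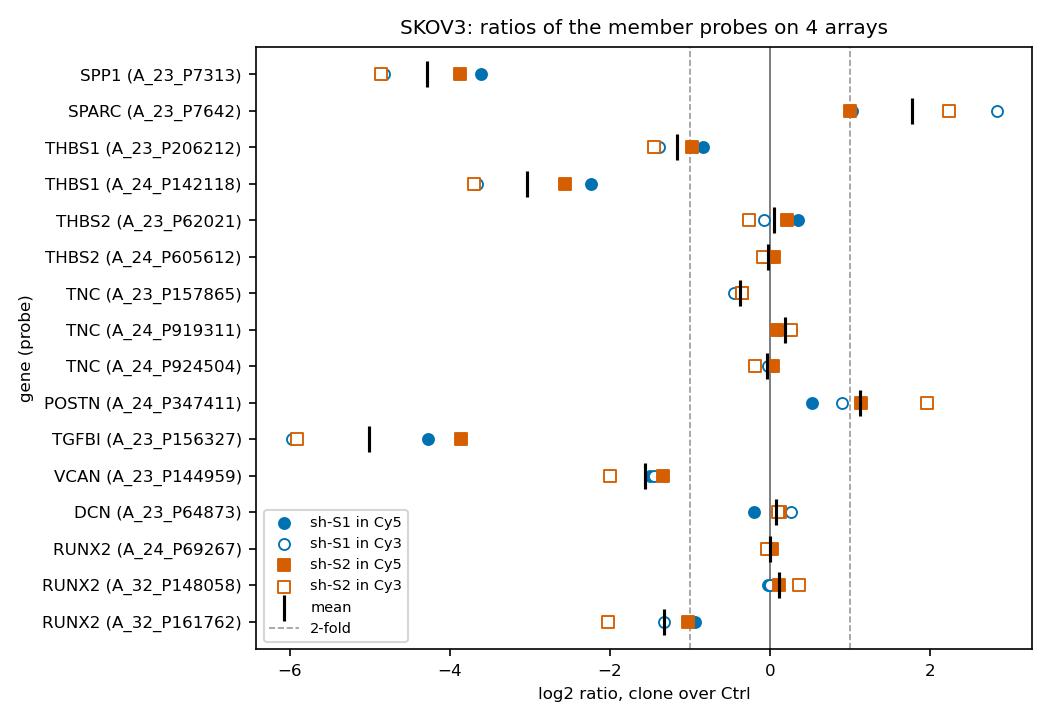
Log2 ratio of each clone over Ctrl (horizontal axis) for the 16 probes (vertical axis) on the 4 SKOV3 arrays, with filled symbols for the clone in Cy5, open symbols for the clone in Cy3 and a bar at the mean. The TGFBI, SPP1 and THBS1 A_24_P142118 points lie below -2 on every array, whereas the THBS2, TNC and DCN points lie between -0.45 and 0.35.

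SPP1 was bright in the SKOV3 Ctrl and fell in both clones. With the Ctrl in Cy3, the median of its 10 spots was 34185 and 30284 over background, beside 24.1 in sh-S1 and 31.6 in sh-S2 in Cy5. With the dyes exchanged, the Ctrl gave 1286 and 1569 in Cy5, and sh-S1 and sh-S2 gave 622 and 809 in Cy3. The signal was thus well above background in all 5 RNAs on every array. The log2 ratio was -3.61 and -4.82 for sh-S1 and -3.87 and -4.86 for sh-S2, with the clone in Cy5 first. The mean was -4.29 ± 0.11 (SD, n = 2 clones; limma's adjusted p = 2.49e-06), 19.6-fold lower, with a 95% interval from -4.52 to -4.06. This interval leaves out the spread between dye orientations, and none of the single-array ratios lies within it. The spots on 1 array agreed closely when the clone was in Cy5, with SDs of 0.099 and 0.086, and spread further when it was in Cy3, with SDs of 0.20 and 0.41. The lowest and the highest spot on any SKOV3 array were -5.45 and -3.48, so all spots were lower in the clones.

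**Figure D2:**
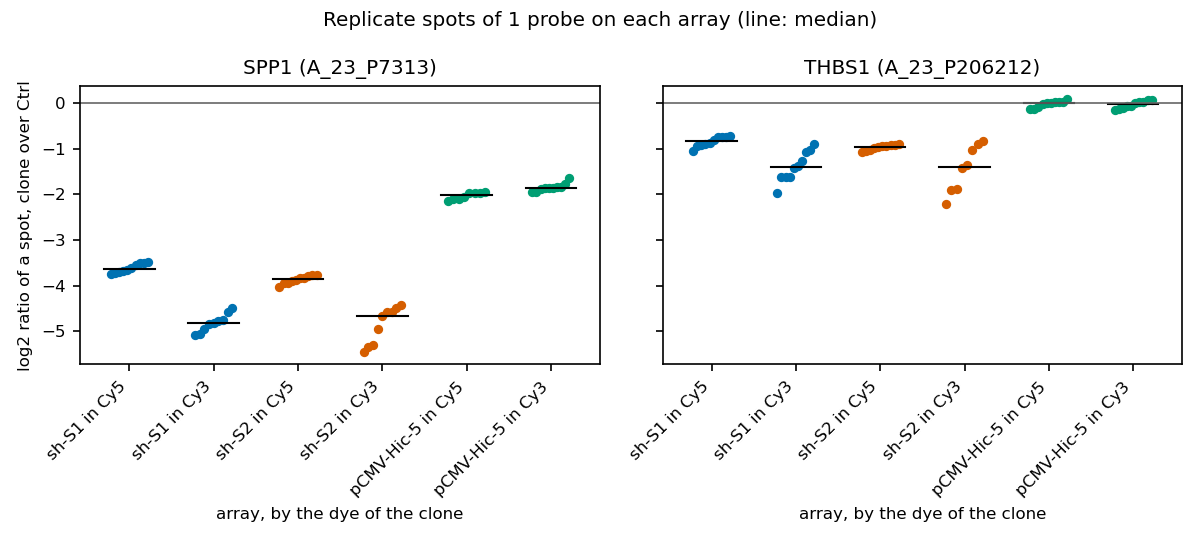
Log2 ratio of single spots (vertical axis) of the SPP1 probe and of the THBS1 probe A_23_P206212 on the 6 arrays (horizontal axis, named by clone and the dye of the clone), with a line at the median of up to 10 spots. The SPP1 spots lie between -5.45 and -3.48 on the SKOV3 arrays and between -2.14 and -1.65 on the A2780s arrays, whereas the THBS1 spots lie around 0 in A2780s.

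TGFBI and POSTN encode closely related proteins with fasciclin domains that bind integrins and collagen, and they moved in opposite directions. TGFBI, the transforming growth factor beta-induced protein, had log2 ratios of -4.27 and -5.98 for sh-S1 and -3.87 and -5.92 for sh-S2, with the clone in Cy5 first. Its mean of -5.01 ± 0.17 (SD, n = 2 clones; adjusted p = 2.49e-06 by limma), or 32.2-fold lower, was the largest change among the 16 probes. The Ctrl signal was 130730 and 102300 over background in Cy3, not flagged as saturated, and the clones remained well above background on all 4 arrays. POSTN, periostin, gave 0.53 and 0.90 for sh-S1 and 1.13 and 1.96 for sh-S2, a mean of 1.13 ± 0.59 (SD, n = 2 clones; adjusted p = 0.0043 by limma) and 2.19-fold higher. The probe was tested because both clones were well above background on both of their arrays, while the Ctrl was so on 2 of 4, at 106 and 107 in Cy3 but at 1.63 and 4.02 in Cy5. The size of the rise is therefore loosely set: across the alternatives with a test it ran from 0.83 with the clones in Cy5 only to 3.95 in the log ratios of the scanner software, and the probe was not tested under the stricter filter on dim probes.

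The thrombospondins are trimeric or pentameric glycoproteins, of which THBS1 activates latent transforming growth factor beta and binds CD36 and CD47. Both THBS1 probes fell, but by different amounts. The probe A_24_P142118 (hg19 chr15:39888831-39888890) had log2 ratios of -2.24 and -3.67 for sh-S1 and -2.56 and -3.70 for sh-S2, a mean of -3.04 ± 0.13 (SD, n = 2 clones; adjusted p = 5.36e-06 by limma) or 8.24-fold lower. The probe A_23_P206212 (hg19 chr15:39887910-39887969) gave -0.84, -1.39, -0.97 and -1.45 on the same arrays, a mean of -1.16 ± 0.07 (SD, n = 2 clones; adjusted p = 0.000201 by limma). With the clones in Cy5, only 1 and 3 of the 10 spots of this second probe were well above background, with median signals of 7.66 and 9.98. The second probe was thus tested through the Ctrl, which was well above background on all 4 arrays. It was not tested under the stricter filter. Its ratio was -2.71 in the log ratios of the scanner software, closer to the -3.32 of the first probe. THBS2 did not pass the threshold with either probe. The mean was 0.06 (95% interval -0.18 to 0.29) for A_23_P62021 and -0.02 (-0.24 to 0.20) for A_24_P605612. For both, the arrays fell on both sides of 0. In Cy5 A_24_P605612 was dim, at 18.1 and 31.0 in the Ctrl, 5.62 in sh-S1 and 19.5 in sh-S2. The sh-S1 signal in Cy5 was not well above background. The offset added in the background correction shrinks the ratios of dim probes, so this flat ratio cannot show that THBS2 was unchanged. A_23_P62021 was well above background on every array of this line.

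SPARC and TNC are modulators of adhesion. SPARC, a collagen-binding glycoprotein also known as osteonectin, was higher in both clones. Its log2 ratios were 1.03 and 2.84 for sh-S1 and 1.01 and 2.24 for sh-S2, with the clone in Cy5 first. The mean was 1.78 ± 0.22 (SD, n = 2 clones; limma's adjusted p = 6.67e-05), 3.43-fold higher. With the clones in Cy3 the signals were 17048 and 12867, beside 110 and 126 for the Ctrl in Cy5. With the clones in Cy5 they were 199 and 260, beside 4189 and 3733 for the Ctrl in Cy3, so before normalization the brighter RNA was the one in Cy3 in either orientation. TNC, the hexameric glycoprotein tenascin-C, was read by 3 probes that did not move together. The probe A_23_P157865 was lower on 4 of 4 arrays, from -0.35 to -0.45, and its mean of -0.38 passed limma's adjusted p of 0.0222 without reaching 2-fold. In Cy5 the clones were not well above background with this probe, at 4.74 in sh-S1 and 9.25 in sh-S2. It was thus tested through the Ctrl, which was well above background on all 4 arrays. In the log ratios of the scanner software, which use surrogates for low signals, it reached -1.44 and was called. The probe A_24_P919311 had a mean of 0.19 (limma's adjusted p = 0.188), and A_24_P924504 was not well above background in any RNA on any array.

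VCAN and DCN encode chondroitin sulphate proteoglycans of very different size, the large hyaluronan-binding versican and the small collagen-binding decorin. VCAN had log2 ratios of -1.50 and -1.44 for sh-S1 and -1.33 and -1.99 for sh-S2. The mean was -1.57 ± 0.14 (SD, n = 2 clones; limma's adjusted p = 7.36e-05), 2.96-fold lower, and the probe was well above background in every RNA of this line. With the clones in Cy3 the signals were 1942 and 1972, beside 329 and 493 for the Ctrl in Cy5. With the dyes exchanged they were 41.5 and 80.8, beside 9088 and 8168 for the Ctrl. Before normalization the RNA in Cy3 was thus the brighter in either orientation, as for SPARC. DCN was lower on 1 of 4 arrays and higher on 3, with a mean of 0.07 and a 95% interval from -0.15 to 0.30. The interval spans 0 and does not reach 2-fold in either direction, but it cannot exclude a 2-fold change. In Cy5 the DCN probe was dim, at 11.6 and 21.0 in the Ctrl, 3.86 in sh-S1 and 16.3 in sh-S2. The sh-S1 signal in Cy5 was not well above background. The offset added in the background correction shrinks the ratios of dim probes.

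RUNX2, the only transcription factor gene among the 10, fell with 1 of its 3 probes. The probe A_32_P161762 had log2 ratios of -0.94 and -1.32 for sh-S1 and -1.02 and -2.02 for sh-S2, with a mean of -1.33 (SD 0.28 over 2 clones, adjusted p = 0.000333 by limma). The Ctrl was well above background on each of 4 arrays, at 1744 and 1898 in Cy3, but the clones were so on 2 of their 4 arrays, and in Cy5 their signal was 0.117 and 8.88. The probe was thus tested through the Ctrl, where it is high, and was not tested under the stricter filter. In the log ratios of the scanner software its ratio was -3.40. The probe A_24_P69267, shown above, was at 301 and 415 in the Ctrl in Cy3 and had ratios between -0.03 and 0.02. Its mean was -0.0031, with a 95% interval from -0.22 to 0.22. In Cy5 this probe was dim, at 12.7 and 18.2 in the Ctrl, 5.63 in sh-S1 and 12.3 in sh-S2. On each sh-S1 array its Cy5 signal was not well above background. The offset added in the background correction shrinks the ratios of dim probes, so the flat ratio cannot show that RUNX2 was unchanged. The third, A_32_P148058 (hg19 chr6:45296166-45296425), was too dim to be tested and had a mean of 0.11. The fall of RUNX2 is therefore a result of 1 probe of uncertain size. The mean over the tested probes was -0.66 here, short of 2-fold, whereas the scanner software's log ratios of -3.40 and, for A_24_P69267, -0.20 lie further apart.

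The 2 clones differed little from each other for most of these genes. Within the same dye orientation, sh-S2 minus sh-S1 was -0.26 and -0.04 for SPP1 and 0.41 and 0.06 for TGFBI, small beside their ratios. POSTN showed the largest difference, with sh-S2 above sh-S1 by 0.60 with the clones in Cy5 and by 1.06 with the clones in Cy3. For SPARC the difference was -0.03 and -0.59, and for RUNX2 A_32_P161762 it was -0.08 and -0.70, larger in size with the clones in Cy3. With 1 array per clone and orientation, dye and array cannot be told apart. Each clone gave 1 RNA, and these differences were not tested.

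In A2780s cells, 13 of the 16 probes, covering 9 genes, were well above background in 1 of the RNAs on both arrays. TGFBI and the THBS1 probe A_23_P206212 passed the background limit on 1 of 2 arrays in each RNA and did not enter, and neither did TNC A_24_P924504. With 1 pair of RNAs, a probe was counted where its mean changed at least 1.5-fold in the same direction on both arrays, and no p-value was computed. SPP1 was the 1 probe counted as lower, and none was counted as higher. Over all 30530 probes that entered, 1.32% were counted as lower and 3.26% as higher. The 13 probes had a median of -0.09, beside -0.0073 over all.

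SPP1 was lower in the pCMV-Hic-5 clone, at a log2 ratio of -2.03 when labelled with Cy5 and of -1.85 when labelled with Cy3. The mean of -1.94 was a 3.84-fold difference. The 8 and 10 spots used of the SPP1 probe lay between -2.14 and -1.65, with SDs of 0.076 and 0.087 within the arrays, and the signals were 1137 and 1666 in the A2780s Ctrl beside 445 and 344 in the clone. The spots are repeats within an array, not replicates of the clone. SPP1 was thus lower than its Ctrl in both contrasts, in the RNAs labelled as having less Hic-5 and in the RNA with more TGFB1I1. DCN (-0.60 and -0.41) and POSTN (-0.47 and -0.43) were lower on both arrays and stayed short of 1.5-fold on the mean. The other probes that entered had means between -0.21 and -0.01. RUNX2 had ratios of opposite sign on the arrays with all 3 probes, for example 0.27 and -0.36 for A_24_P69267, and SPARC had 0.04 and -0.16.

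**Figure D3:**
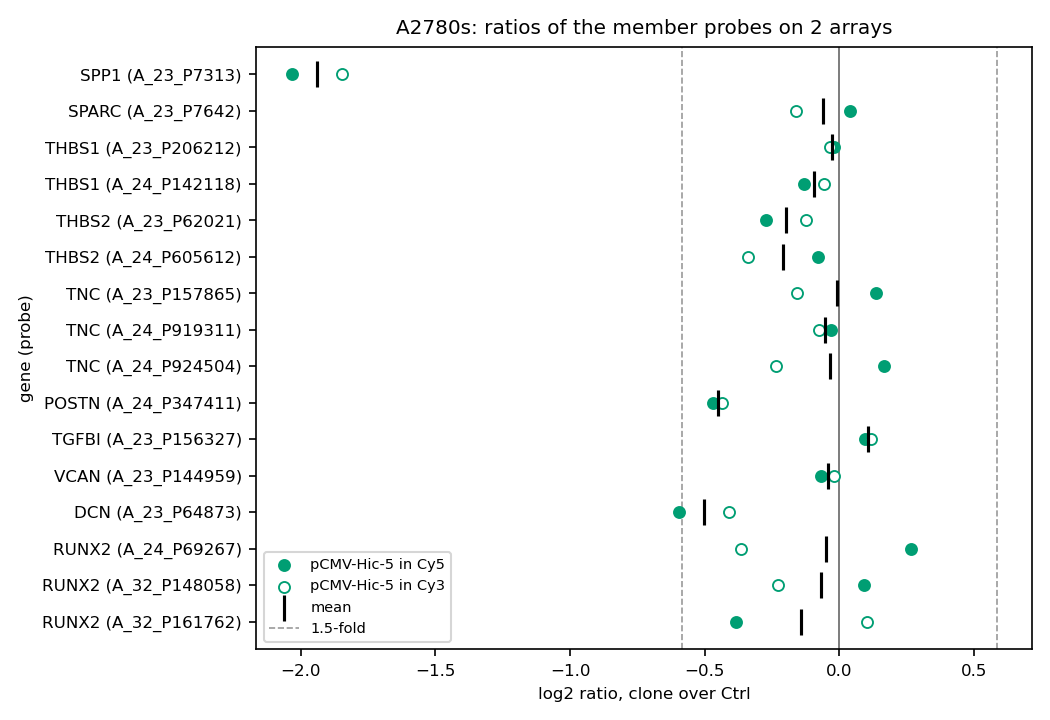
Log2 ratio of pCMV-Hic-5 over A2780s Ctrl (horizontal axis) for the 16 probes (vertical axis) on the 2 A2780s arrays, filled with the clone in Cy5, open with the clone in Cy3, and a bar at the mean. SPP1 at -2.03 and -1.85 stands alone beyond the 1.5-fold lines on both arrays, and 3 of the probes drawn (TGFBI, THBS1 A_23_P206212 and TNC A_24_P924504) were too dim to enter.

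The level of each probe was also followed through the 5 RNAs, as log2 intensity per channel after normalization between arrays. A level is compared only with the same probe's own level in another RNA, and the cell lines lie on different slides, so line and slide cannot be told apart and no test was made. SPP1 was at 13.3 to 13.7 on the 4 arrays of the SKOV3 Ctrl, 8.52 to 10.1 in sh-S1, 8.39 to 9.87 in sh-S2, 9.45 on both arrays of the A2780s Ctrl and 7.41 to 7.60 in pCMV-Hic-5. The SKOV3 Ctrl was highest and pCMV-Hic-5 lowest, and the 3 RNAs between them overlapped in this normalization. TGFBI was at 15.7 to 17.1 in the SKOV3 Ctrl, 11.0 to 11.8 in the sh-labelled RNAs and 6.91 to 7.36 in the A2780s RNAs, where it was well above background on 1 of 2 arrays for each RNA. THBS1 A_24_P142118 (12.9 to 13.1 in the SKOV3 Ctrl, 9.23 to 10.7 in these clones, 8.32 to 8.50 in A2780s) had the same order.

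VCAN levels were 11.5 to 11.8 in the SKOV3 Ctrl, 9.67 to 10.4 in the sh-labelled RNAs and 8.14 to 8.65 in the A2780s RNAs. SPARC ran the other way, at 10.1 to 10.7 in the SKOV3 Ctrl, 11.7 to 13.2 in these clones and 12.7 to 12.9 in A2780s, the clones overlapping with A2780s. POSTN was at 6.40 to 8.07 in the SKOV3 Ctrl, 7.09 to 10.0 in these clones and 9.78 to 10.4 in A2780s, with overlap between each neighbouring pair of these 3. RUNX2 A_32_P161762 was at 8.07 to 9.67, 6.75 to 8.64 and 6.57 to 7.22 in the same order, but the mean of the other RUNX2 probes was higher in the A2780s Ctrl than in the SKOV3 Ctrl (8.02 beside 7.61 for A_24_P69267, 7.31 beside 6.98 for A_32_P148058). The changes in the clones and the distance between the lines share the SKOV3 Ctrl RNA, and they are given side by side without a measure of likeness. For SPP1 the mean level relative to the SKOV3 Ctrl was -4.29 in the clones and -4.07 in the A2780s Ctrl. The same values were -5.01 and -9.34 for TGFBI, 1.78 and 2.41 for SPARC, and 1.13 and 3.08 for POSTN. The distance of -9.34 for TGFBI is of uncertain size, since the A2780s Ctrl was well above background on 1 of 2 arrays. Without the normalization between arrays, the A2780s slide was brighter by a median of 1.18 over all probes. Relative to that median, the distance between the lines was -3.17 for SPP1, -9.13 for TGFBI, 4.24 for SPARC and 3.94 for POSTN. For THBS2 A_23_P62021 the distance was -1.28 after this normalization and 0.51 without it, or -0.67 relative to the median. The order of the lower RNAs also turned without this normalization. SPP1 in pCMV-Hic-5 was then at 8.59, above sh-S1 (8.19) and sh-S2 (8.25). The A2780s Ctrl lay above both clones for THBS1 A_24_P142118 (9.53 beside 8.84 and 8.98) and VCAN (9.44 beside 9.09 and 9.21). The SKOV3 Ctrl remained the highest for these 3 probes.

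**Figure D4:**
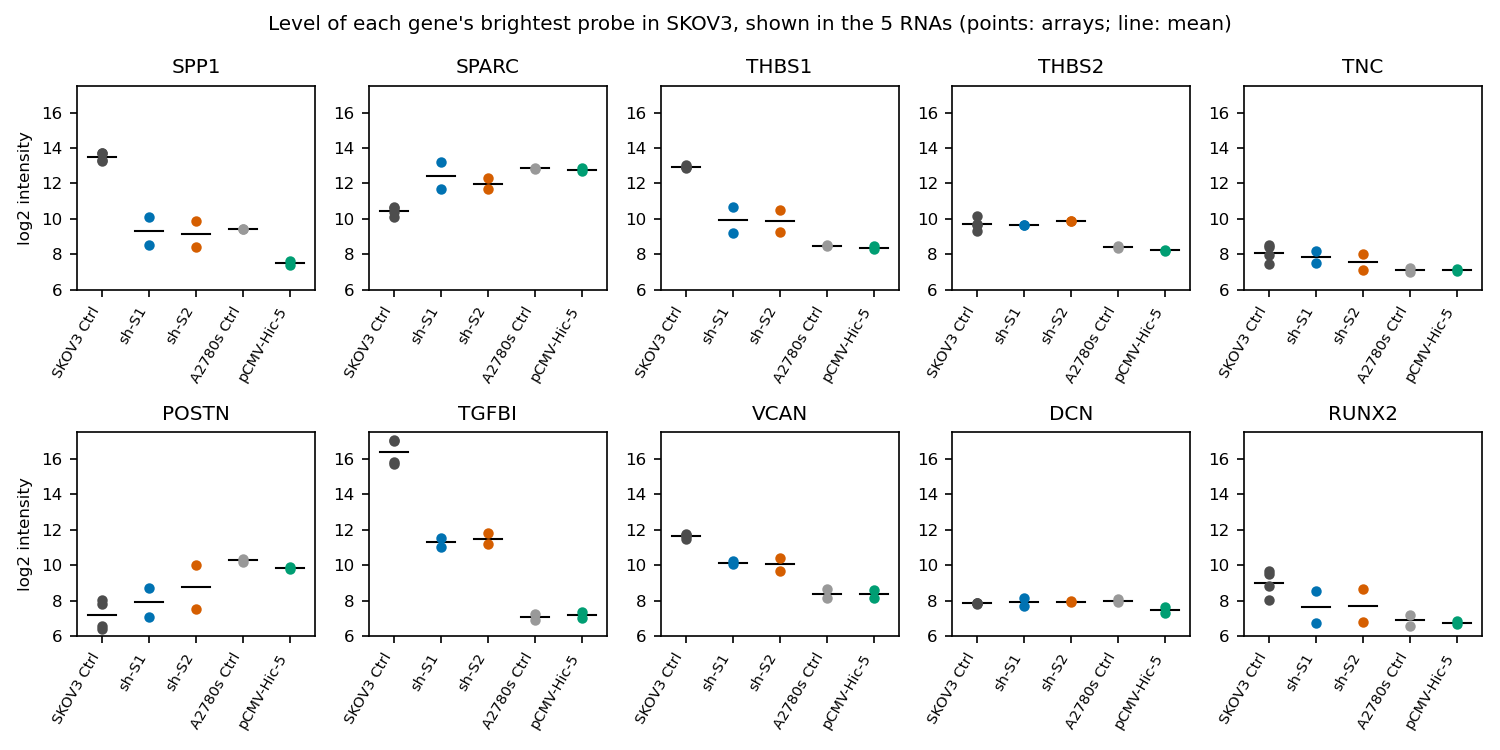
Log2 intensity (vertical axis) of the probe of each gene that was brightest in SKOV3, in the 5 RNAs (horizontal axis), with a point per array and a line at the mean. SPP1, TGFBI, THBS1, VCAN and 1 RUNX2 probe of 3 (A_32_P161762) are highest in the SKOV3 Ctrl, and SPARC and POSTN are lowest there, and panels are not comparable with each other in height because the probes differ.

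Genes that act with these proteins were read from 4 lists, each gene by its brightest tested probe. Over all probes tested in SKOV3, 4.16% were called lower and 2.98% higher. In A2780s, 1.32% of the probes that entered were counted as lower and 3.26% as higher. These shares are per probe, and no share per gene is given, so the counts of the lists are a description. Among receptors of matricellular proteins, 4 of the 14 tested fell in the sh-labelled RNAs and none rose. These were CD44, which binds osteopontin (log2 ratio -3.73, limma's adjusted p = 2.49e-06), the hepatocyte growth factor receptor gene MET (-3.26, 8.43e-06), the integrin subunit gene ITGB1 (-1.85, 3.01e-05) and CD47 (-1.53, 8.41e-05). The median of the list was -0.59. MET rested on its brightest probe, since the mean over its 3 probes was -1.19. In A2780s, ITGB1 (-0.68) was the 1 receptor of 13 counted as lower, and it fell short of 1.5-fold, at -0.56, on the mean over its probes.

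Among ligands, receptors and SMADs of the transforming growth factor beta pathway, TGFBR2 was the 1 gene of 10 called in SKOV3, at -2.71 (limma's adjusted p = 7.06e-06). It encodes the ligand-binding receptor, and the median of the list was -0.36. The other 9 had ratios between -0.59 and 0.63. In A2780s, the ligand genes TGFB2 (-0.85) and TGFB3 (-0.68) were counted as lower among 12. TGFBR2 had -0.01 there.

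Of 26 other matricellular proteins and small proteoglycans, 16 were tested in SKOV3. FN1, fibronectin (-3.33, limma's adjusted p = 5.19e-06), and 3 genes of the CCN family, CCN1 (-1.70), CCN3 (-1.63) and CCN5 (-1.22), were lower, with adjusted p between 4.07e-05 and 0.00031. FBLN1, fibulin-1 (1.52, 0.000235), and HAPLN1, a link protein that joins versican to hyaluronan (1.27, 0.000194), were higher. CCN5 and HAPLN1 were named after their values had been seen. The mean over its probes was 0.71 for FBLN1 and -0.92 for CCN3, both short of 2-fold. In the sh-labelled RNAs, CCN3 and CCN5 passed the background limit on only 2 of 4 arrays, beside 4 of 4 for the Ctrl. The size of the fall is therefore uncertain for CCN3 and CCN5. In A2780s, CCN1 (-1.49), CCN2 (-1.26) and HAPLN1 (-0.71) were counted as lower among 18, and FN1 was not well above background on either array. Of the RUNX partners and osteoblast genes, TWIST1, a basic helix-loop-helix factor (1.97, limma's adjusted p = 2.01e-05), was the 1 gene of 9 called in SKOV3, and none of 10 was counted in A2780s.

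**Figure D5:**
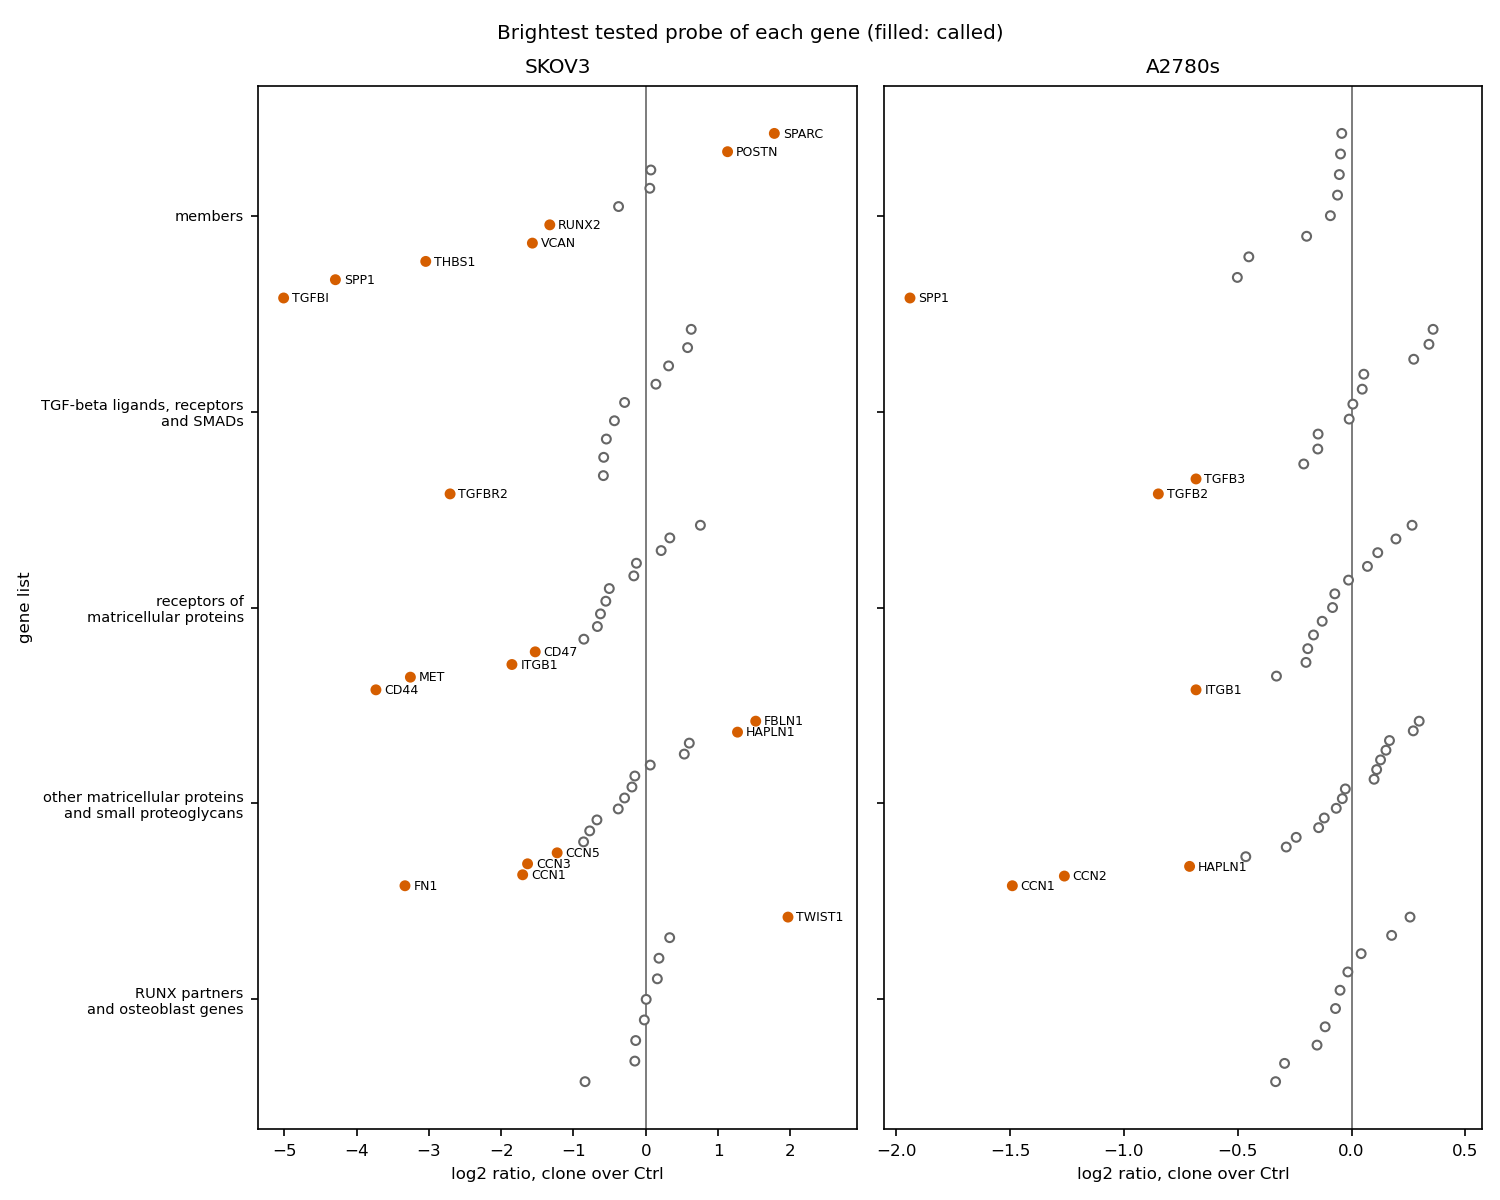
Log2 ratio of clone over Ctrl (horizontal axis) for the brightest tested probe of each gene in 5 lists (vertical axis), in SKOV3 at left and A2780s at right, with called genes filled and named. In SKOV3 the called receptors CD44, MET, ITGB1 and CD47 lie between -3.73 and -1.53, and in A2780s SPP1 at -1.94 is the largest change in these lists.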

How the data were processed

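Total RNA of 5 cell clones was measured on 6 two-colour arrays. The authors deposited spot intensities in Cy3 and Cy5 as Agilent Feature Extraction wrote them (version 10.7.3.1 per the file headers, 8.5.1.1 in the submitters' processing notes), not normalized. Its processed intensities and log10 ratios of Cy5 over Cy3, deposited by the authors beside them, were spatially detrended and dye-normalized, with surrogates for low signals, and were used as an alternative. The deposited series values are the same log10 ratios, rounded, with dye-swapped arrays not turned, and their column medians are 0 to 0.00139.

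Mean intensities were corrected for the local median background with limma 3.58.1 (normexp, offset 50) in R 4.3.3, fitted without spots that were background outliers, and spots with a local background over 1000 (39 on 1 A2780s array) or an outlier flag were left out. Arrays were normalized by loess, spots of a probe averaged, and log2 ratios given the direction of clone over Ctrl. An offset of 50 shrinks the ratios of dim probes. In SKOV3, dye-swaps were averaged and the clone means tested against 0 with lmFit and eBayes, with Benjamini-Hochberg adjustment over the probes tested. A probe counted as well above background where at least 50% of its spots had the scanner's flag for it. Slide and scan were 1 for all SKOV3 arrays and 1 for both A2780s arrays, which left no batch term to fit.

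The genes, lists and tests were chosen with earlier results of these data known. Named were all probes of the 10 genes, TGFB1I1, and the 4 called genes with the largest change per other list and comparison, besides CCN5 and HAPLN1, which were added after their values were seen. Alternatives changed the background fit, offset, normalization, dim-probe filter, dye orientation, fold rule, and the use of clones and probes. The test was also run on simulated data, of which no outcome is given here. Promoters came from RefSeq (GRCh38.p14). Exon and UTR annotation of the probes on hg19 was not analysed here.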

Additional observations from a re-analysis of the deposited data

How the results depend on the processing

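Of the alternatives tried, none turned the direction of a called probe. With the log ratios of the scanner software in place of normexp and loess, 7 probes were lower and 2 higher in SKOV3, and in A2780s 2 were lower, DCN (-0.71) joining SPP1. With only the arrays that carried the clone in Cy5, 2 were also lower in A2780s (DCN at -0.60), and 1 was higher and 4 lower in SKOV3, since POSTN (0.83), THBS1 A_23_P206212 (-0.91) and RUNX2 A_32_P161762 (-0.98) fell short of 2-fold. A stricter filter, well above background in both channels on every array of the line, kept 6 probes in SKOV3, of which 1 was higher (SPARC) and 4 lower, and 12 in A2780s, of which 1 was lower. The cause was not tested. Under every other alternative that gives a call the counts stayed at 2 higher and 6 lower in SKOV3 and 0 higher and 1 lower in A2780s. Leaving out either clone gives a value with no test, and SPP1 was then -4.37 or -4.22 and POSTN 1.55 or 0.72.

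Of the 24956 probes tested in SKOV3, 743 were called higher and 1038 lower, against 1964 and 2355 in the log ratios of the scanner software, 1965 and 2245 at 1.5-fold, 1578 lower with median centring and 1222 higher with the clone in Cy3 only. Of the 30530 probes in A2780s, 994 were counted higher and 403 lower, against 194 and 29 at 2-fold, 495 and 123 at 1.5-fold on each array, 1795 and 1516 with the clone in Cy5 only, 210 lower with the clone in Cy3 only and 693 lower in the log ratios of the scanner software. No paired analysis was possible because the replicate numbers of a group only name its dye orientations, and each array already sets a clone against its Ctrl. With the 4 SKOV3 arrays fitted singly, with the clone as a random block or with a dye term, 2 probes of the genes were higher and 6 lower. The dim Cy5 channel of the SKOV3 arrays limits POSTN, TNC, DCN, RUNX2, THBS1 A_23_P206212 and THBS2 A_24_P605612. In Cy5 the SPP1 signals of sh-S1 (24.1) and sh-S2 (31.6) were also below the offset of 50, though well above background. The same held in sh-S1 for VCAN (41.5) and THBS2 A_23_P62021 (41.3).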
